A study of Homo sapiens with 4 samples.

Results

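The 10 genes described here encode the 3 pocket proteins (RB1, RBL1 and RBL2), the 5 subunits of the MuvB core (LIN9, LIN37, LIN52, LIN54 and RBBP4) and the activators MYBL2 and FOXM1. They were taken by gene name from a count table of 60606 genes, and all 10 were among the 19349 genes that passed the expression filter. RNA was measured in LNCaP-DaroR cells, a line selected from LNCaP prostate cancer cells by rising concentrations of darolutamide, an antiandrogen drug, and then kept in the drug. All 4 libraries come from this resistant line and differ in the siRNA: 2 received control siRNA (siControl) and 2 received a pool of siRNAs against the long non-coding RNA LOC730101 (siLOC730101). The comparison asks how loss of LOC730101 affected these RNAs in resistant cells. Parental LNCaP cells are not analysed here. The labels do not say whether the 2 libraries of a group came from separate cultures, so p-values measure the spread between these libraries, which may be technical.

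Pocket proteins and MuvB control when cell cycle genes are transcribed. RB1, the retinoblastoma protein, holds activating E2F factors in check until kinases with cyclin D and cyclin E phosphorylate it. RBL1 (p107) and RBL2 (p130) join E2F4 or E2F5, a DP partner and MuvB to form DREAM, a repressor of cell cycle genes in resting and G1 cells. When the cell cycle proceeds, MuvB leaves the pocket protein and binds MYBL2 (B-MYB) and then FOXM1, and these assemblies activate genes of G2 and mitosis. Within MuvB, LIN54 contacts DNA at the cell cycle genes homology region (CHR), and LIN52 connects MuvB to RBL1 or RBL2 once it is phosphorylated by DYRK1A. RBL1, MYBL2 and FOXM1 are themselves known as cell cycle regulated genes.

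The sequences that these complexes read were searched in the promoters of the members, since they connect the genes to their own regulators. RefSeq promoters (GRCh38.p14, from 250 bases before to 50 bases after a gene start) were listed for 9 members with 15 starts. FOXM1 had no entry, and the single start listed for RB1 (chr13:48476200-48476499) lies inside the gene. The E2F motif was searched as TTTCCCGC, TTTCGCGC, TTTGGCGC or TTTGCCGC on both strands, and it was found in 1164 of 35116 promoters (3.31%). Among the members it was found in RBL1 and LIN52. RBL1 held a pair of matches, the first 26 bases before the start, and LIN52 held a single match 25 bases before the start. The windows are printed on the strand of the gene with the matches in capitals; RBL1 is at chr20:37095991-37096038 on the minus strand and LIN52 at chr14:74084916-74084953 on the plus strand.
RBL1: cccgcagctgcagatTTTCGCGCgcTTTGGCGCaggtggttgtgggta
LIN52: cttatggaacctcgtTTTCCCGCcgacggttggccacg

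The CHR, the site contacted by LIN54, was searched as TTTGAA or TTCGAA on both strands. It was found in 5742 of the 35116 promoters (16.4%), and in promoters of LIN9, LIN37, LIN54 and RBL2 among the members. The match of LIN54 (chr4:83010903-83010938, minus strand) lay 100 or 89 bases before the start, depending on which of its starts was used. LIN9 held 2 matches at 1 of its 3 listed starts, at chr1:226309204-226309239 and chr1:226309147-226309182 on the minus strand. RBL2 (chr16:53434480-53434515, plus strand) had its match 24 bases after the start, and LIN37 (chr19:35748617-35748652, plus strand) 182 bases before it. None of these matches overlapped an E2F match. A match describes the letters of the window and is not a measurement of binding.
LIN54: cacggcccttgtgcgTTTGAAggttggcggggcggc
LIN9, 60 bases before the start: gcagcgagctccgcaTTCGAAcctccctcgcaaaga
LIN9, 3 bases before the start: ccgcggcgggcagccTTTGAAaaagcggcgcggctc
RBL2: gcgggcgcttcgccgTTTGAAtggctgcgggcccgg
LIN37: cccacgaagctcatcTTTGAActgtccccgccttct

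The libraries held 39213498 to 53368158 counts, with fewer counts in both siLOC730101 libraries. Values below are CPM, counts relative to the size of the library, after scaling with the TMM factors of edgeR, and log2 fold changes are siLOC730101 against siControl from its quasi-likelihood test over all genes that passed the filter, with Benjamini-Hochberg adjusted p-values. LOC730101, listed as ENSG00000216775 (chr6:52664366-52669155), had 47.4 and 50.6 normalized CPM in siControl and 15.4 and 17.9 in siLOC730101, which is -1.56 on the log2 scale (standard error 0.12, adjusted p = 4.34e-06). The targeted RNA therefore followed the labels. In each library, KLK3, KLK2, HOXB13, TMPRSS2 and FOLH1, markers of luminal prostate cells, had at least 383 normalized CPM. TP63, KRT5 and PTPRC were at 0 in all 4 libraries, ERG was at most 0.111 and COL1A1 at most 14.7. VIM, a mesenchymal marker, had 2.87 and 2.33 in siControl and 3.48 and 3.77 in siLOC730101 (adjusted p = 0.599, edgeR), and its part in the results was not tested. In bulk RNA, fewer cells in a cell cycle phase and less RNA per cell cannot be told apart.

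None of the 10 members passed an adjusted p of 0.05, in either direction, while 55 of the 19349 genes tested (0.284%) did in edgeR. Lower genes made up 0.0724% and higher genes 0.212% of all genes tested, and both counts were 0 among the members. At an unadjusted p under 0.05, 1 of the 10 members, FOXM1, was lower and 0 were higher, beside 4.39% lower and 6.43% higher over all genes tested. DESeq2 gave an adjusted p for 9 of the 10 members, with none for LIN37. Of these, 0 passed 0.05, beside 64 lower and 233 higher genes over the whole table in DESeq2. DESeq2 used a filter of its own, so these 2 counts are not shares of the 19349 genes. Each of the 10 log2 fold changes was below 0, as was the case for 50.4% of all genes tested, but 1 member turned above 0 when siControl replicate 2, siLOC730101 replicate 1 or siLOC730101 replicate 2 was left out. They ranged from -0.25 for FOXM1 to -0.054 for LIN52, with a median of -0.12, beside a median of -0.0021 over all genes tested. In 5 members, both siLOC730101 libraries lay below both siControl libraries, a pattern held by 20.5% of all genes tested. Counting groups without overlap in either direction, the share was again 5 of 10 members, beside 41.7% of all genes tested. These members were RB1, LIN54, RBBP4, MYBL2 and FOXM1. With 2 libraries in each group, the smallest p of an exact permutation test (both sides) is 0.333.

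**Figure D1:**
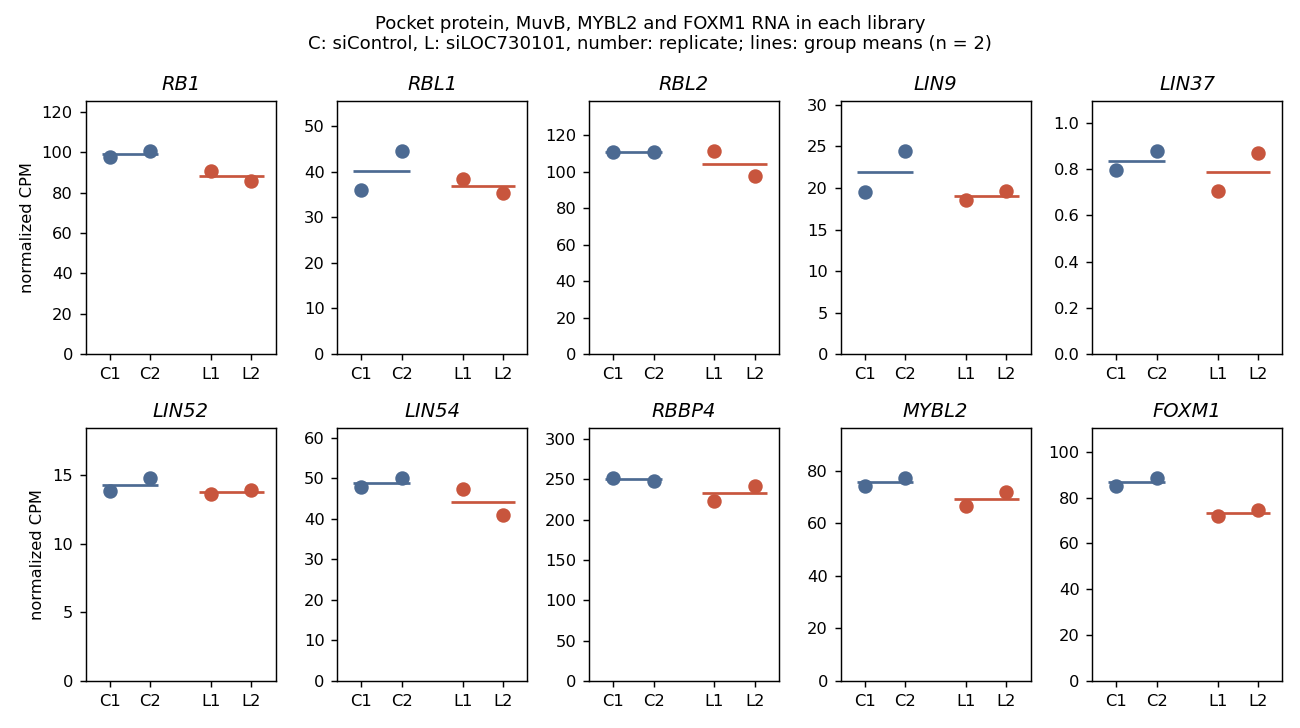
Normalized CPM of the 10 members in each library (C1 and C2, siControl replicates; L1 and L2, siLOC730101 replicates), with horizontal lines at the mean of each group (n = 2) and each vertical axis starting at 0. FOXM1 shows the widest gap between the groups, from 85.1 and 88.4 in siControl to 71.9 and 74.5 in siLOC730101, while the groups overlap for RBL1, RBL2, LIN9, LIN37 and LIN52.

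Among the pocket proteins, RB1 (chr13:48303744-48599436, plus strand) had 97.4 and 100.4 normalized CPM in siControl and 90.7 and 85.9 in siLOC730101. Both siLOC730101 libraries were lower, without overlap between the groups. The log2 fold change of RB1 was -0.16 (standard error 0.082, adjusted p = 0.505, edgeR), with a 95% interval from -0.34 to 0.011. In percent, this interval runs from -20.9% to 0.798%. RB1 stayed between -0.19 and -0.13 when any one library was left out.

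RBL2, which encodes p130, the pocket protein typical of resting cells (chr16:53433977-53491648, plus strand), had 110.8 and 110.6 normalized CPM in siControl and 111.1 and 97.8 in siLOC730101. The replicates of siControl were almost equal, and siLOC730101 replicate 1 lay just above both, so the lower mean came from siLOC730101 replicate 2 alone. The log2 fold change of RBL2 was -0.083 (standard error 0.086, 95% interval -0.27 to 0.099, adjusted p = 0.800, edgeR). Leaving out siLOC730101 replicate 2 gave 0.0031, and leaving out siLOC730101 replicate 1 gave -0.17.

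RBL1, which encodes p107 and carries the pair of E2F matches printed above (chr20:36996349-37095997, minus strand), had 36.0 and 44.4 normalized CPM in siControl and 38.5 and 35.4 in siLOC730101. The high value was siControl replicate 2, and the other siControl library lay between the siLOC730101 libraries. RBL1 had a log2 fold change of -0.12 (standard error 0.12, 95% interval -0.37 to 0.13, adjusted p = 0.785, edgeR). The direction of RBL1 rested on siControl replicate 2, since without that library the value was 0.042, and without siControl replicate 1 it was -0.27. The paper, in contrast, lists RBL1 as significantly lower in RNA-seq after this knockdown. It also reports a significant change of RBL1 by RT-qPCR, a separate measurement that is not examined here. At an adjusted p of 0.05, the paper calls many more genes over the whole table than the 55 that passed here in edgeR. The difference is therefore not limited to RBL1, and its cause was not tested.

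The 3 pocket proteins can be compared with each other per kilobase of exon, with a limit. Exons of other genes cover 16.4% of the exon bases of RBL2, 3.58% of those of RBL1 and 0% of those of RB1. How this changes the shares was not tested, so the order of RB1 and RBL2 is not settled. In siControl, RB1 made up 43.0% ± 0.668 (SD, n = 2) of their summed level, and after knockdown 41.9% ± 1.02 (SD, n = 2). RBL2 accounted for 38.2% ± 1.45 (SD, n = 2) and 39.2% ± 1.07 (SD, n = 2). RBL1 was the smallest share, with 18.8% ± 2.12 (SD, n = 2) in siControl libraries and 18.9% ± 0.0527 (SD, n = 2) after knockdown. The share of RBL1 moved by less than the spread of siControl, and the ratio of RBL2 to RBL1 was 2.04 ± 0.307 (SD, n = 2) for siControl and 2.08 ± 0.0624 (SD, n = 2) for siLOC730101. The summed level was 34.8 and 36.7 CPM per kb in the siControl libraries and 34.3 and 31.3 in the siLOC730101 libraries.

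Within MuvB, LIN54, the subunit that contacts DNA (chr4:82909973-83012926, minus strand), had 47.8 and 49.95 normalized CPM in siControl and 47.3 and 40.9 in siLOC730101. The groups did not overlap, but siLOC730101 replicate 1 was close to the lower siControl library. LIN54 had a log2 fold change of -0.15 (standard error 0.10, 95% interval -0.37 to 0.071, adjusted p = 0.662, edgeR). Its size rested on siLOC730101 replicate 2, since the value was -0.049 without that library and -0.25 without the other siLOC730101 library.

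LIN9, a scaffold subunit needed for activation of G2 and mitotic genes (chr1:226231149-226309869, minus strand), had 19.5 and 24.4 normalized CPM in siControl and 18.6 and 19.6 in siLOC730101. As with RBL1, siControl replicate 2 was the one high library, and the other 3 libraries lay close together. The log2 fold change of LIN9 was -0.20 (standard error 0.14, 95% interval -0.49 to 0.091, adjusted p = 0.652, edgeR). Without siControl replicate 2 it was -0.030, and without siControl replicate 1 it was -0.35.

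LIN52, the subunit that is phosphorylated by DYRK1A (chr14:74084956-74201493, plus strand), had 13.8 and 14.8 normalized CPM in siControl and 13.6 and 13.9 in siLOC730101. The groups overlapped, with siControl replicate 2 as the highest library. The log2 fold change of LIN52 was -0.054 (standard error 0.15, 95% interval -0.37 to 0.26, adjusted p = 0.943, edgeR). It ranged from -0.099 without siControl replicate 1 to -0.0044 without siControl replicate 2.

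RBBP4, a histone-binding protein that is also part of several chromatin complexes outside MuvB (chr1:32651142-32686211, plus strand), had 251.5 and 248.7 normalized CPM in siControl and 223.8 and 241.7 in siLOC730101. Both siLOC730101 libraries were lower, with siLOC730101 replicate 2 close to siControl. RBBP4 had a log2 fold change of -0.10 (standard error 0.075, 95% interval -0.26 to 0.055, adjusted p = 0.679, edgeR). The value without siLOC730101 replicate 1 was -0.040, and that without replicate 2 of the same group was -0.16. Among the members, RBBP4 has named pseudogenes in the table, and 6 of them were listed. RBBP4P1 and RBBP4P2 had at most 16 counts in any library, and RBBP4P3, RBBP4P4, RBBP4P5 and RBBP4P6 had 0, against at least 9176 counts for RBBP4.

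LIN37, the subunit known for its part in repression by DREAM (chr19:35748361-35754519, plus strand), was covered by only 43 and 41 reads in siControl libraries, against 29 and 33 after knockdown. In normalized CPM these were 0.795 and 0.876 in siControl and 0.706 and 0.869 in siLOC730101, so the groups overlapped. Its log2 fold change of -0.086 had a standard error of 0.58 and a 95% interval from -1.32 to 1.15 (adjusted p = 0.982, edgeR). At this depth, the interval covers a wide range of changes in both directions. Of the 2820 exon bases of LIN37, 1522 (54.0%) lie in exons of ENSG00000188223, on the same strand, or of ENSG00000267439, on the opposite strand. featureCounts by default assigns a read that overlaps exons of several genes to none of them, and its command here has no option that changes this. Whether the low count of LIN37 comes from such reads was not tested.

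Exons of other genes also covered 22.8% of the exon bases of RBBP4 (SYNC), 16.4% of those of RBL2 (AKTIP and ENSG00000279344), 15.9% of those of FOXM1 (ITFG2) and 3.58% of those of RBL1 (ENSG00000269846). All of these lie on the opposite strand, and counting was without a strand option. RB1, LIN9, LIN52, LIN54 and MYBL2 shared no exon base with another gene of the table. The effect of these overlaps on the levels was not tested.

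FOXM1, a forkhead factor that activates mitotic genes (chr12:2857680-2877174, minus strand), had 85.1 and 88.4 normalized CPM in siControl and 71.9 and 74.5 in siLOC730101. It was lower in both siLOC730101 libraries, and the gap between the groups was wider than the distance between replicates. The log2 fold change of FOXM1 was -0.25 (standard error 0.084, 95% interval -0.42 to -0.067), with an unadjusted p of 0.0103 and an adjusted p of 0.258 in edgeR's quasi-likelihood test. In percent, the interval runs from -25.4% to -4.54%. FOXM1 kept its direction when any one library was left out, with log2 fold changes from -0.27 to -0.21, and its adjusted p ranged from 0.0985 to 0.757 over all 13 alternatives. FOXM1 did not pass the threshold in any of them.

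MYBL2, which encodes B-MYB (chr20:43667019-43716495, plus strand), had 74.4 and 77.2 normalized CPM in siControl and 66.6 and 72.0 in siLOC730101. The groups did not overlap, and siLOC730101 replicate 2 lay near the lower siControl library. MYBL2 had a log2 fold change of -0.13 (standard error 0.087, 95% interval -0.31 to 0.057, adjusted p = 0.649, edgeR). It was -0.065 without siLOC730101 replicate 1. Per kilobase of exon, the ratio of MYBL2 to FOXM1 was 1.55 in both siControl libraries and 1.64 and 1.71 in the siLOC730101 libraries, a difference that an exact permutation test of 2 against 2 libraries cannot place below p = 0.333.

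**Figure D2:**
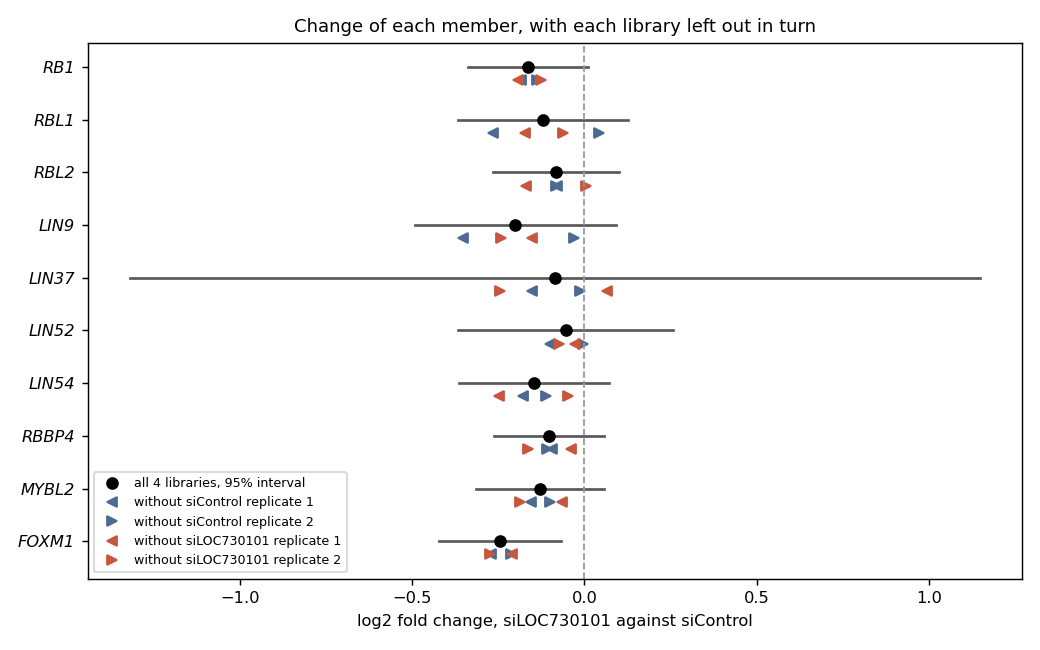
Log2 fold change of each member (siLOC730101 against siControl, horizontal axis); black points and lines are the fit of all 4 libraries with its 95% interval, and triangles give the value with 1 library left out (blue, siControl; red, siLOC730101; pointing left, replicate 1; pointing right, replicate 2). All 10 points lie below 0 and all intervals but that of FOXM1 cross it, and RBL1, RBL2 and LIN37 each have 1 triangle above 0.

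The order of RNA levels was compared per kilobase of exon, on the mean of the 4 libraries. MYBL2 was highest with 26.1 CPM per kb (24.0 to 27.8), followed by RBBP4 with 25.5 (23.6 to 26.6), and their ranges overlapped. FOXM1 with 16.3 (14.6 to 18.0), RB1 with 14.5 (13.3 to 15.6) and RBL2 with 13.3 (12.1 to 13.7) came next; FOXM1 overlapped RB1 and RB1 overlapped RBL2, while RBL2 lay above the next lower gene without overlap. These 5 genes lay above 81.9%, the share of all genes tested that were below RBL2, the lowest of them.

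LIN54 and RBL1 formed a lower pair, with 6.87 CPM per kb (6.05 to 7.39) and 6.48 CPM per kb (5.94 to 7.46), which did not differ beyond their spread. LIN9 had 4.62 CPM per kb (4.18 to 5.49) and LIN52 had 3.70 CPM per kb (3.59 to 3.90), without overlap. LIN37 was last with 0.288 CPM per kb (0.25 to 0.311). Among the MuvB subunits, RBBP4 thus stood above the other 4, and the ratio of RBBP4 to LIN9 was 5.41 ± 0.893 (SD, n = 2) for siControl and 5.72 ± 0.0936 (SD, n = 2) for siLOC730101. The order of LIN54 and RBL1 differed between libraries, and RBBP4, FOXM1, RBL2, RBL1 and LIN37 carry the exon overlaps given above.

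**Figure D3:**
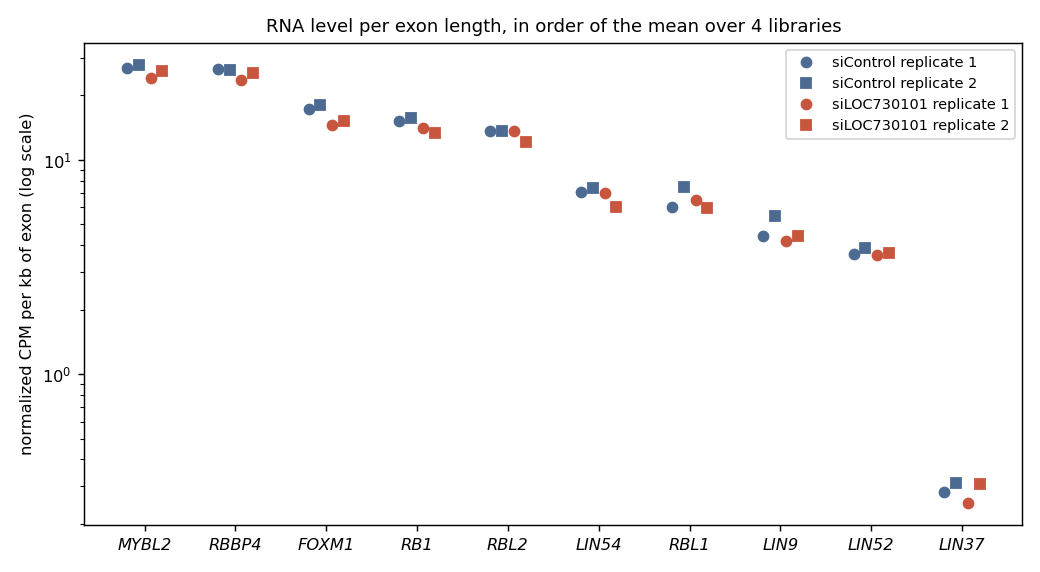
Normalized CPM per kilobase of exon (vertical log axis) of the members, ordered by their mean over the 4 libraries; circles are replicate 1 and squares replicate 2, blue is siControl and red is siLOC730101. MYBL2 and RBBP4 lie near 26 CPM per kb, LIN52 near 3.70, and LIN37 far below at 0.288 in the mean.

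The partners and regulators of the complexes were examined with 3 further gene lists from general knowledge of the pathway. Of 10 E2F and DP factors, 4 lay below 0, beside 50.4% of all genes tested, and the median log2 fold change was 0.031. In edgeR 0 passed an adjusted p of 0.05, beside 0.284% of all genes tested, nor did any of the 8 with an adjusted p in DESeq2. At an unadjusted p under 0.05 in edgeR, 1 of the 10 factors (E2F8) was lower and 0 were higher, beside 4.39% and 6.43% of all genes tested. The highest was E2F5, a partner of RBL2 and RBL1, with 11.9 and 15.4 normalized CPM in siControl and 15.3 and 15.6 in siLOC730101 (log2 fold change 0.18, adjusted p = 0.756, edgeR). The lowest was E2F8, an atypical repressor, with 8.75 and 11.2 in siControl and 7.30 and 7.14 in siLOC730101 (log2 fold change -0.47, adjusted p = 0.369, edgeR). E2F8 was lower in both siLOC730101 libraries, and its siControl libraries differed from each other more than its siLOC730101 libraries did.

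The second list held 13 cyclins, kinases, inhibitors and SKP2 that act on pocket proteins or on MuvB. CCND2 did not pass the expression filter. Of the 12 tested, 5 lay below 0, beside 50.4% of all genes tested, and the median was 0.011. In edgeR 0 passed, nor did any of the 11 with an adjusted p in DESeq2. At an unadjusted p under 0.05 in edgeR, 1 of the 12 (CCND3) was higher and 0 were lower, beside 6.43% and 4.39% of all genes tested. CCND3, a cyclin D that activates the kinases of RB1, had 54.8 and 50.9 normalized CPM in siControl and 59.3 and 68.4 in siLOC730101 (log2 fold change 0.27, adjusted p = 0.287, edgeR). It lay above siControl in both siLOC730101 libraries. DYRK1A, the kinase of LIN52, had 101.5 and 109.5 in siControl and 94.9 and 99.4 in siLOC730101 (log2 fold change -0.12, adjusted p = 0.664, edgeR). The groups did not overlap, and siLOC730101 replicate 2 lay near the lower siControl library.

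The third list held 9 paralogs of members and corepressors that pocket proteins recruit. Of these, 6 lay below 0, beside 50.4% of all genes tested, and the median was -0.040. In edgeR 0 passed, nor did any of the 7 with an adjusted p in DESeq2. At an unadjusted p under 0.05 in edgeR there were 0, beside 4.39% lower and 6.43% higher over all genes tested. RBBP7, the paralog of RBBP4, had 135.5 and 132.4 normalized CPM in siControl and 150.2 and 149.0 in siLOC730101 (log2 fold change 0.16, adjusted p = 0.471, edgeR). RBBP7 was higher in both siLOC730101 libraries where RBBP4 was lower in both, and neither difference passed. MYB, a paralog of MYBL2, had 2.13 and 1.71 in siControl and 2.21 and 1.05 in siLOC730101 (log2 fold change -0.23, adjusted p = 0.910, edgeR), with the widest spread in siLOC730101.

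Genes that the complexes regulate were counted in lists of G1/S genes, known as E2F and DREAM targets, and of G2/M genes, known as targets of MuvB with MYBL2 and FOXM1; CCNE2 and CCNA2 stand in the cyclin list too. In the first list, 23 of 28 genes (82.1%) lay below 0, beside 50.4% of all genes tested. The median was -0.15 on the log2 scale, beside -0.0021 over all genes tested, and 0 passed an adjusted p of 0.05 in edgeR. In DESeq2, 1 (RRM2, lower) of the 27 with an adjusted p passed, beside 64 lower and 233 higher genes over the whole table. The whole-table values are counts, and their share of the genes with an adjusted p in DESeq2 was not computed. At an unadjusted p under 0.05 in edgeR, 9 of the 28 were lower and 0 were higher, beside 4.39% and 6.43% of all genes tested. CDC45, a replication helicase factor, was the lowest, with 18.7 and 16.9 normalized CPM in siControl and 12.3 and 14.4 in siLOC730101 (log2 fold change -0.42, adjusted p = 0.276, edgeR). CCNE2, a cyclin E, was the highest, with 6.60 and 5.08 in siControl and 7.50 and 6.27 in siLOC730101 (log2 fold change 0.24, adjusted p = 0.777, edgeR). The groups did not overlap for CDC45 and overlapped for CCNE2.

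In the G2/M list, 35 of 40 genes (87.5%) lay below 0, beside 50.4% of all genes tested. The median was -0.18 on the log2 scale, beside -0.0021 over all genes tested, and 0 passed in edgeR. In DESeq2, 2 (MKI67 and HMMR, lower) of the 37 with an adjusted p passed, beside the same 64 lower and 233 higher genes over the whole table. At an unadjusted p under 0.05 in edgeR, 11 of the 40 were lower and 1 was higher, beside the same 4.39% and 6.43% of all genes tested. PLK4, the kinase of centriole duplication, was the lowest among those with a mean above 1 CPM, with 12.0 and 13.4 normalized CPM in siControl and 9.76 and 9.03 in siLOC730101 (log2 fold change -0.44, adjusted p = 0.307, edgeR). UBE2S, a ubiquitin-conjugating enzyme that works with the anaphase-promoting complex, was the highest, with 102.0 and 100.8 in siControl and 112.9 and 142.6 in siLOC730101 (log2 fold change 0.33, adjusted p = 0.178, edgeR). The medians of the E2F and cyclin lists lay above 0 in the TMM fit of all 4 libraries, and below 0 with library size only (-0.0073 and -0.027) or upper-quartile factors (-0.00058 and -0.020). With TMM factors and a library left out, the E2F median was below 0 without either siControl library, and the cyclin median without siControl replicate 1 or siLOC730101 replicate 2. Without the expression filter the cyclin median was -0.0029. All genes of a list share the same 4 libraries, so the medians describe these libraries and are not tests of the lists.

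**Figure D4:**
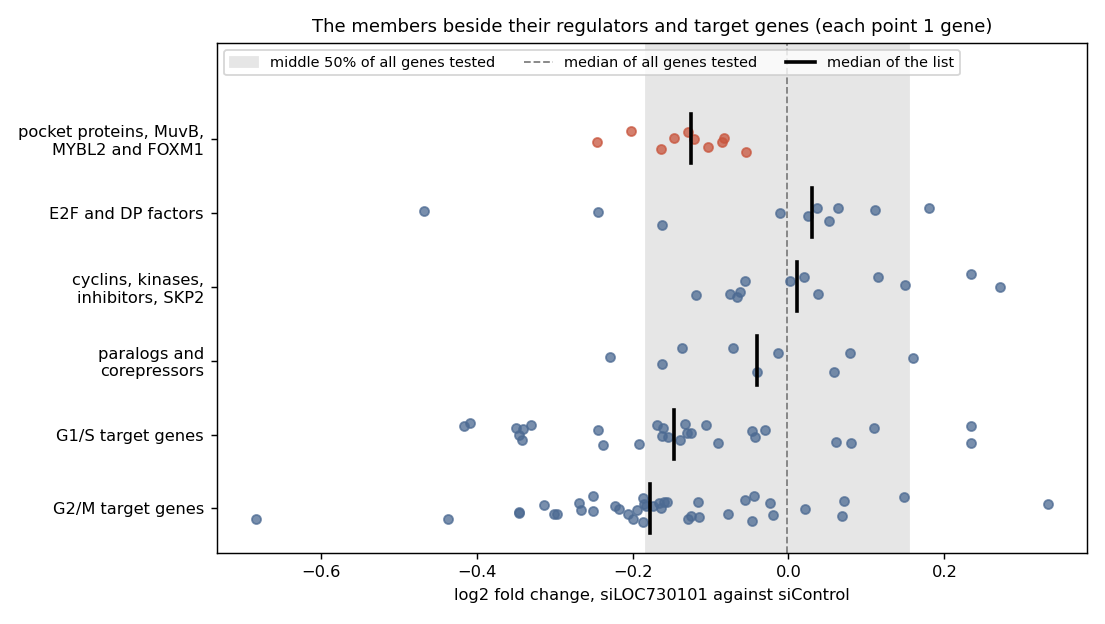
Log2 fold changes (siLOC730101 against siControl, horizontal axis) of the 10 members and of the genes in 5 lists of regulators and targets, 1 point per gene, with a black bar at the median of each list; the grey band holds the middle 50% of all genes tested (-0.18 to 0.15) and the dashed line is their median. The medians are -0.12 for the members, 0.031 for E2F and DP factors, 0.011 for cyclins and kinases, -0.040 for paralogs and corepressors, -0.15 for G1/S genes and -0.18 for G2/M genes.

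The genes most like FOXM1 and MYBL2 over the 4 libraries were looked up among the 97 genes tested in these lists, by the root-mean-square distance of log2 CPM centred on each gene's mean. Nearest to FOXM1 were BUB1, a spindle checkpoint kinase, at 0.018, AURKA, a mitotic kinase, at 0.023 and CDCA8, a subunit of the chromosomal passenger complex, at 0.041. Their log2 fold changes were -0.27 for BUB1, -0.25 for AURKA and -0.31 for CDCA8, and none passed an adjusted p of 0.05. Nearest to MYBL2 were the replication helicase genes MCM2 at 0.017 and MCM3 at 0.025, and DYRK1A at 0.025, with log2 fold changes of -0.16, -0.16 and -0.12. These distances rest on 4 libraries and are a description. The 97 genes include the 40 G2/M and 28 G1/S genes of the lists. The distance contains the difference between the groups, so near genes have similar log2 fold changes by construction.

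Since the study connects LOC730101 with miR-1-3p, the 3′ UTRs of the members were searched for matches to its seed, bases 2 to 8, shown in capitals (RefSeq, GRCh38.p14, MIR1-1 at chr20:62554351-62554372).
hsa-miR-1-3p: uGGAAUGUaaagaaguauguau

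In a GRCh37 annotation with 1 transcript per gene, a 7mer or 8mer match was found in 2984 of 13455 tested protein-coding genes (22.2%). A 7mer match was either to the whole seed, or to the seed without its base 8 and followed by an A (7mer-A1). Of the 10 members only RBBP4 held one, in a 3′ UTR of 6506 bases, the longest among the members. It held an 8mer match at position 3829 (chr1:33149124-33149153 on GRCh37, plus strand). It also held a 7mer-A1 match, which leaves base 8 of the seed unmatched, at position 4321 (chr1:33149615-33149644). The sequences below give each match in capitals with the bases around it.
RBBP4, 8mer: actagaaacaaACATTCCAaatgaactctg
RBBP4, 7mer: agactgtgtctcCATTCCAcctgcctgaga

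The log2 fold change of RBBP4 (-0.10) lay within the range of the members without such a match, from -0.25 to -0.054, and did not pass the test. With 1 member holding a match, an effect of miR-1-3p on these RNAs was not tested. RB1, RBL1, RBL2 and FOXM1, with 3′ UTRs of 1819, 2410, 1348 and 958 bases, held 0 matches.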

How the data were processed

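RNA was sequenced from 2 siControl and 2 siLOC730101 libraries. The deposited values are counts per gene without normalization: after trimming (Trim Galore) and alignment, the authors counted reads over exons by gene name with featureCounts 2.0.1, for which the header names hg38 and gencode 41. The methods of the paper name STAR and another build, and the submitters' processing notes name BWA and hg38. Between 66.0% and 70.1% of values from 1 to 20 were even, as when mates are counted apart, so counts may exceed fragments. The chi-square per degree of freedom between replicates was 10.6 and 13.0, so replicates differed beyond sampling noise.

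Counts were filtered with filterByExpr, scaled with TMM and tested with glmQLFit and glmQLFTest of edgeR 4.0.16 in R 4.3.3 with the condition as the only term; intervals are 95% intervals from the fit. In all, 13 alternatives were run, DESeq2 1.42.0 among them, and the test was tried on simulated counts. Sequences came from RefSeq tables and a GRCh37 annotation, read with Python 3.11.15.

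Members and lists were chosen with earlier results of these data known. Named besides the members are, for each list, called genes and the highest and lowest log2 fold change above a mean of 1 CPM, the 3 genes nearest to FOXM1 and MYBL2, genes sharing exons with members, and named pseudogenes. Further genes in the account of the alternatives were picked because they passed there. Some markers of the luminal list are not reported here.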

Additional observations from a re-analysis of the deposited data

How the results depend on the processing

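The 10 members gave 0 calls, higher or lower, in all 13 alternatives, and 127 values of single members kept their direction; 126 of these kept their side of the threshold, and DESeq2 gave no adjusted p for LIN37. The other 3 changed direction when 1 library was left out: RBL1 ranged from -0.27 to 0.042 (above 0 without siControl replicate 2), RBL2 from -0.17 to 0.0031 (without siLOC730101 replicate 2) and LIN37 from -0.24 to 0.066 (without siLOC730101 replicate 1). The median log2 fold change of the members was -0.16 with library size only, -0.17 without siControl replicate 1 and -0.090 without siControl replicate 2. LOC730101 passed in all 13 alternatives. A library left alone in its group was assumed to vary like the other group.

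Counts over the whole table moved more. They were 233 higher and 64 lower with DESeq2, 112 and 34 with halved counts, 87 and 24 with the newer quasi-likelihood method, 324 and 113 without the expression filter, and 485 and 167 with the replicate number as a block. Lower genes numbered 35 with library size only. With 1 library left out, higher genes ranged from 77 to 923 and lower genes from 26 to 272, the highest counts both being without siLOC730101 replicate 1. Deviations of same-numbered libraries had a correlation of -0.00090, a single value pooled over all genes tested. It shows no deviation shared by these genes as a whole, and cannot tell whether the libraries were prepared in pairs. With the block, the adjusted p of FOXM1 was 0.0985 in edgeR.

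Among G1/S genes, 1 gene (RRM2) passed with DESeq2, with halved counts and with library size only, 2 (RRM2 and DTL) without the filter and 3 (RRM2, DTL and GINS1) with the block, all lower; among G2/M genes, 2 (MKI67 and HMMR) passed with DESeq2 and 4 without the filter and with the block (MKI67, HMMR and TOP2A lower, UBE2S higher). With 1 library left out these counts ranged from 0 to 3 and from 0 to 6, and from 0 to 1 (CCND3, higher) for cyclins and kinases, each highest without siLOC730101 replicate 1. List medians with library size only were -0.0073 for E2F and DP factors, -0.027 for cyclins and kinases, -0.078 for paralogs, -0.19 for G1/S and -0.22 for G2/M genes, and with upper-quartile factors -0.071 for paralogs and -0.21 for G2/M genes. With 1 library left out they ranged from -0.025 to 0.017, -0.038 to 0.091, -0.047 to 0.015, -0.20 to -0.11 and -0.19 to -0.11 in that order. The cause of these shifts was not tested. The depth of 29 to 43 counts leaves the interval of LIN37 wide.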
